A study of Mus musculus with 51 samples.

Results

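The comparison described here sets the lungs of B-cell deficient mice against those of C57BL/6 mice after both had been exposed to methylene diphenyl diisocyanate (MDI), an industrial chemical used to make polyurethane that can sensitize the airways. Its members are the 7 arrays titled as MDI-exposed B6.129S2-Ighmtm1Cgn/J mice and the 13 titled as MDI-exposed C57BL/6 mice without crofelemer, which make 20 of the 51 arrays of the series. The B-cell deficient mice carry a targeted allele of Ighm, the gene of the immunoglobulin mu heavy chain, without which B cells do not mature, and the allele was made in cells of another mouse strain and moved onto a B6 background. The C57BL/6 mice carry no targeted allele, and the labels give neither their substrain nor whether they were littermates. All mice were males of 6 to 8 weeks whose shaved skin was exposed 2 times to 1% MDI in acetone. Under isoflurane, MDI-exposed mice then received MDI that had reacted with glutathione through the respiratory tract, which was done on day 15 and again on days 16, 19 and 20, and lavaged lung was taken 48 h after the last exposure. For context, 9 B-cell deficient and 6 C57BL/6 lungs given a control solution are used. They had the same skin exposure, and whether it sensitized each mouse was not measured here. The labels do not say that each array is a different mouse, so the p-values measure the spread between these arrays.

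Whole lung RNA was measured on 1-colour Affymetrix-type arrays as log2 signal for 22206 probe sets, which represented 19505 named genes. Arrays have no read depth, and their number limits the precision. The deposited array means were 8.033 to 8.047 in B-cell deficient and 7.480 to 7.512 in C57BL/6 MDI lungs, so the genotypes look separately scaled, and genotype and scaling cannot be told apart. The 20 arrays were therefore brought to 1 distribution (quantile normalization), and every value below is on that log2 scale unless another is named. At an adjusted p under 0.05, 28.6% of all probe sets were called different, of which 49.4% were higher and 50.6% lower on this scale, against 30.2% and 69.8% with arrays centred on their medians, which moved the median of all named genes by -0.12, and 98% and 2.03% with the deposited values, which moved it by 0.53. Correlations between arrays after this step were 0.9888 to 0.9945 among B-cell deficient, 0.9717 to 0.9946 among C57BL/6 and 0.9741 to 0.9885 across the genotypes. C57BL/6 replicate 1 stood apart from its group (mean correlation 0.9805). The source name of C57BL/6 replicate 14 speaks of control products while its title and other labels say MDI, and it was kept. Of the B-cell deficient arrays, 4 belong to the first block of consecutive records in the series and 3 to the second, and of the C57BL/6 arrays 12 belong to the first block and 1 to the third. The labels do not call these blocks batches. Differences within the first block, with 4 and 12 arrays, are given where they bear on a result.

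B cells arise in the bone marrow and mature only once they display a B-cell receptor, built from immunoglobulin heavy and light chains with the signalling partners Cd79a and Cd79b. Mature B cells collect in follicles, in answer to the chemokine Cxcl13, and become plasma cells that secrete antibody, and lung that is exposed repeatedly to an allergen can form such follicles beside its airways. Allergic lung responses also draw on T helper cells, eosinophils, mucus-secreting epithelium and macrophages, and antibody, in particular IgE, arms mast cells and basophils.

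The promoters of 2 B-cell genes and of a pair of gene copies are shown because the genes they belong to are among those with the largest differences below. For Cd79a, on the plus strand at chr7:24897247-24897496, and Cd22, on the minus strand at chr7:30879029-30879278, capitals mark AGGAAGT, a core bound by ETS factors, and the palindrome bound by the B-cell factor Ebf1. For the copies Plac9a, at chr14:25902894-25903143, and Plac9b, at chr14:26182352-26182601, both on the minus strand, capitals mark the longest run of bases that is the same in both. Each holds the 250 bases before the annotated start, 5′ to 3′ on the gene's strand, from RefSeq (GRCm38.p6).
Cd79a: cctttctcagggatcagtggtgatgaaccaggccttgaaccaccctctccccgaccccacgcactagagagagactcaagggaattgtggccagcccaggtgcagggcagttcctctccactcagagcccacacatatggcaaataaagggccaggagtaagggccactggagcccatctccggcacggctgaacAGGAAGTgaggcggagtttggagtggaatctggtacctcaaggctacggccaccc
Cd22: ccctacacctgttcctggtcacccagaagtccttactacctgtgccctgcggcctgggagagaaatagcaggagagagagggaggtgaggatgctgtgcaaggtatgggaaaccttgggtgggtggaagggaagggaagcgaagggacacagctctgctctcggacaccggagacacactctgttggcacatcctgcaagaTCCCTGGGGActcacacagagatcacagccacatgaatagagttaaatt
Plac9a: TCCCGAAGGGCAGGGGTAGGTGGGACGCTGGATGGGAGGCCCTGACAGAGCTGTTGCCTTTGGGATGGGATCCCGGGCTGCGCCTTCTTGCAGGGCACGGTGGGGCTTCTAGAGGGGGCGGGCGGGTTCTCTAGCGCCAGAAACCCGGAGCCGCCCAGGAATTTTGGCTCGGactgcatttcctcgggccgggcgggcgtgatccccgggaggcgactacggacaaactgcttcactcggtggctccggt
Plac9b: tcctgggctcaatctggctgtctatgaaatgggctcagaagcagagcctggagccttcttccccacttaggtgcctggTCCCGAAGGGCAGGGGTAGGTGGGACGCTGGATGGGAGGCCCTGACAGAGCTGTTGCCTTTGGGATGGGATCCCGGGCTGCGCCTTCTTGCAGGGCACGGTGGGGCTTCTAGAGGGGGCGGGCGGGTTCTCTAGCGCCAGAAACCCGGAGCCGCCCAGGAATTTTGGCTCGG

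Genes of B cells were among those with the largest differences. No probe set carries the name Ighm, and the targeted gene and the immunoglobulin constant regions were not analysed here, so the label was checked with genes of the B-cell list. Of 27 measured B-cell genes, 23 were lower in B-cell deficient MDI lungs and the other 4 were not called, with a median difference of -1.57 (B-cell deficient minus C57BL/6, as everywhere below). A gene was called at a Benjamini-Hochberg adjusted p under 0.05 in limma, a linear model with moderated variance. Over all 19505 named genes 14.3% were lower and 14.1% higher, with a median difference of 0. In 16 of the 23 the arrays of the genotypes did not overlap with B-cell deficient lungs lower, as in 1.92% of all named genes (1.75% in the other direction). The same 27 genes were lower in 23 cases within the first block, where 6.95% of all named genes were lower and 7.57% higher, and the mean of the list per array was 6.31 to 6.67 in B-cell deficient and 7.73 to 8.89 in C57BL/6 lungs. In bulk tissue, fewer cells of a type and less RNA per cell cannot be told apart.

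Receptor genes were lower. Cd79a, a signalling chain of the B-cell receptor, had a lowest, median and highest signal of 4.09, 4.57 and 4.81 in B-cell deficient lungs, against 9.39, 10.98 and 11.59 in C57BL/6 lungs. Every C57BL/6 array stood above every B-cell deficient one, by more than 4 log2 units, and the difference was -6.19 ± 0.23 (SE; adjusted p = 4.99e-17). Its partner Cd79b had 5.37, 6.33 and 6.89 in B-cell deficient lungs, against 8.00, 9.03 and 9.94 in C57BL/6 lungs, a difference of -2.84 ± 0.20. Ms4a1, which encodes the surface protein CD20, had 3.17, 3.85 and 4.12 in B-cell deficient lungs, against 6.26, 7.31 and 8.05 in C57BL/6 lungs (difference -3.59 ± 0.21, adjusted p = 1.45e-12). These groups did not overlap either, and the B-cell deficient mean of Ms4a1 lay at the 4.5th percentile of all probe sets, close to the low end of the scale. Tnfrsf13c, the receptor of the survival factor BAFF, had 5.81, 6.01 and 6.66 in B-cell deficient lungs and 8.67, 9.69 and 10.31 in C57BL/6 lungs (difference -3.48 ± 0.21).

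Regulators of the lineage were lower as well. Pou2af1, a coactivator of octamer-binding factors, differed by -3.29 ± 0.17, Pax5, the transcription factor that holds cells to the B lineage, by -2.67 ± 0.16, Spib by -1.57 and Ebf1 by -0.80. Pax5 had 3.73, 4.05 and 4.67 in B-cell deficient lungs, against 6.12, 6.98 and 7.26 in C57BL/6 lungs. Coreceptors and adaptors followed, with Bank1, a scaffold of receptor signalling, at -2.94 ± 0.27, Cd22, an inhibitory coreceptor, at -2.66 ± 0.17, Fcmr, the receptor of IgM, at -2.61 ± 0.17, the chemokine receptor Cxcr5 at -2.61, Fcrl1 at -2.31 ± 0.14 and the kinase Blk at -2.20 ± 0.14. Fcer2a, the low-affinity receptor of IgE, had 6.74, 6.87 and 7.70 in B-cell deficient lungs and 7.56, 8.55 and 9.03 in C57BL/6 lungs, with 12 of 13 C57BL/6 arrays above the highest B-cell deficient one (difference -1.45 ± 0.16). Cr2, complement receptor 2, differed by -1.34 ± 0.16. The 4 genes of the list that were not called were Bcl11a (0.30), Siglecg (0.30), Btk (-0.12), which myeloid cells also express, and Vpreb3 (0.08). These 4, Cxcr5, Spib and Ebf1 were named after their values were seen.

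**Figure D1:**
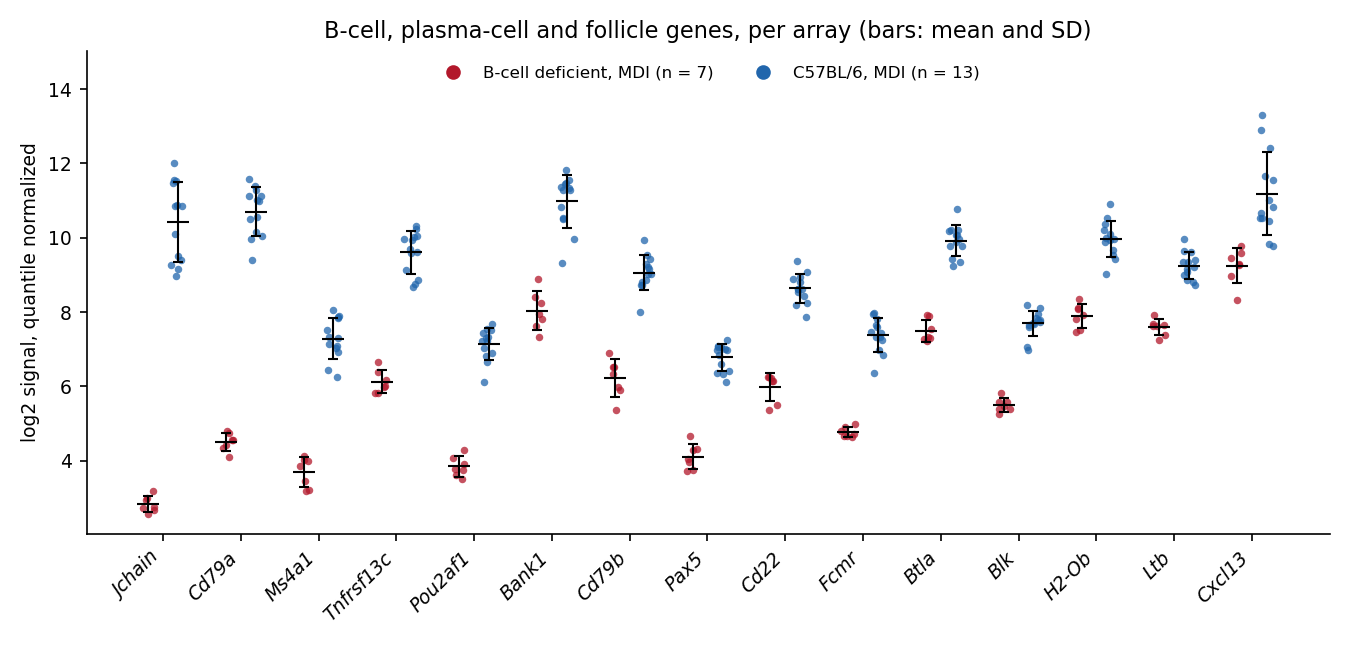
Log2 signal per array (quantile normalized) of 15 B-cell, plasma-cell and follicle genes in B-cell deficient MDI lungs (red, n = 7) and C57BL/6 MDI lungs (blue, n = 13), with bars for mean and SD. From Jchain to Ltb the genotypes do not overlap, and Cxcl13 overlaps in 1 C57BL/6 array.

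Promoters of the B-cell list held the full Ebf1 palindrome in 1 of 22 genes with a RefSeq promoter (4.55%), Cd22, against 0.914% of 27025 genes. The ETS core AGGAAGT, or ACTTCCT on the other strand, was in 6 of 22 (27.3%, Cd79a, Cd72, Vpreb3, Blnk, Fcrl1 and Cd37), against 8.8% of all genes, and the octamer ATGCAAAT or ATTTGCAT in 2 of 22 (9.09%, Vpreb3 and Blnk), against 1.81%. A looser palindrome, CCCNNGGGA or TCCCNNGGG, was found again in Cd22 (4.55%, against 6.45%), and the longer ETS motif of the SPI1 type in no gene of the list, against 0.385% of all genes. These 5 motifs, of which the longer forms contain the shorter ones of their kind, were chosen after the expression values were seen, and a match is a description of the letters.

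The largest difference of any named gene was in Jchain, the protein that joins the units of secreted IgA and IgM. Its signal was 2.56, 2.76 and 3.18 (lowest, median, highest) in B-cell deficient lungs, against 8.98, 10.84 and 12.02 in C57BL/6 lungs, a difference of -7.59 ± 0.35 (adjusted p = 5.56e-15). The B-cell deficient arrays sat at the lowest values of the scale, so the low end of the scale limits the size of this difference, while C57BL/6 arrays themselves spread over 3 log2 units. Of 9 measured genes of immunoglobulin and plasma cells, 4 were lower and 1 higher, beside 14.3% and 14.1% of all named genes. The median difference of this list was 0.16, and Jchain weighs most on its mean per array. Mzb1, which assists antibody secretion, had 3.70, 3.93 and 4.27 in B-cell deficient lungs and 4.77, 5.26 and 5.66 in C57BL/6 lungs (difference -1.37 ± 0.12). Tnfrsf17, the plasma cell receptor BCMA, differed by -0.36 ± 0.10 (adjusted p = 0.00729), though its sign turned to 0.33 on the deposited scale, and Xbp1, a factor of the secretory pathway, differed by -0.42, a call lost within the first block (adjusted p = 0.435). Pigr, the epithelial receptor that carries polymeric IgA and IgM into the airway, was the 1 higher gene, with 12.99, 13.72 and 14.45 in B-cell deficient lungs and 11.89, 13.06 and 13.89 in C57BL/6 lungs (difference 0.74 ± 0.21, adjusted p = 0.00992). The remaining 4, Derl3, Prdm1, Sdc1 and Irf4, differed by 0.16 to 0.30 and were not called. Xbp1 and these 4 were named after their values were seen.

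Genes of lymphoid follicles and lymphotoxin signalling were split, with 4 of 12 lower and 2 higher, beside 14.3% and 14.1% of all named genes. Cxcl13, the chemokine that attracts B cells into follicles, had 8.33, 9.30 and 9.78 in B-cell deficient lungs, against 9.77, 10.82 and 13.31 in C57BL/6 lungs. All but 1 of the 13 C57BL/6 arrays exceeded the highest B-cell deficient array, and the difference was -1.94 ± 0.38 (adjusted p = 0.000339). Ltb, lymphotoxin beta, which lymphocytes use to organize stroma, had 7.25, 7.63 and 7.93 in B-cell deficient lungs and 8.73, 9.22 and 9.97 in C57BL/6 lungs, with no overlap (difference -1.65 ± 0.15). The other 2 lower genes were Fcer2a and Cr2, which also count in the B-cell list. The 2 higher genes were Tnfsf13b, which encodes BAFF, at 0.54, and Tnfsf11, which encodes RANKL, at 0.36, both named after their values were seen, and both calls were lost within the first block (adjusted p = 0.247 and 0.137). Among 11 MHC class II genes 2 were lower and 1 was higher, near the shares of all named genes, so the count is no result about the list. H2-Ob, the beta chain of the DO molecule that B cells use to restrain peptide loading, had 7.45, 7.93 and 8.34 in B-cell deficient lungs and 9.03, 9.96 and 10.90 in C57BL/6 lungs, again without overlap (difference -2.07 ± 0.19). H2-Eb2 differed by -0.69 ± 0.16, with the sign lost on the deposited scale (0.019), and H2-DMa, which helps peptide loading, by 0.65 ± 0.24 (adjusted p = 0.0461, a call that was lost in 13 of the 20 fits that leave out 1 array and within the first block, at 0.34 with adjusted p = 0.482). Btla, an inhibitory receptor of lymphocytes, differed by -2.42 ± 0.17, with 7.23 to 7.93 in B-cell deficient and 9.25 to 10.79 in C57BL/6 lungs.

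Neutrophil genes formed another large lower group. Of 20 measured, 12 were lower in B-cell deficient lungs and 1 was higher, beside 14.3% and 14.1% of all named genes. The median difference was -1.16, and within the first block 8 were lower, beside 6.95% of all named genes. The mean of the list per array was 7.38 to 7.91 in B-cell deficient and 7.68 to 10.29 in C57BL/6 lungs, so that 10 of 13 C57BL/6 arrays exceeded all B-cell deficient ones and the other 3 fell among them. Csf3r, the receptor of granulocyte colony-stimulating factor, had 7.24, 7.76 and 8.83 in B-cell deficient lungs, against 9.72, 11.31 and 12.70 in C57BL/6 lungs (difference -3.40 ± 0.39, adjusted p = 3.78e-07). Its B-cell deficient arrays lay close together, while the C57BL/6 arrays spread over about 3 log2 units, and the groups did not overlap. Ngp, a granule protein of maturing neutrophils, had 2.56, 2.56 and 2.81 in B-cell deficient lungs, at the lowest values of the scale, against 5.19, 6.15 and 9.25 in C57BL/6 lungs (difference -3.74 ± 0.33). The chemokine receptor Cxcr2 differed by -2.35 ± 0.34, the stefin Stfa2l1 by -2.91 ± 0.40, the fungal receptor Clec4e by -1.80 ± 0.26, the alarmins S100a8 and S100a9 by -2.95 and -2.49, and Il1b, the cytokine interleukin 1 beta, by -1.68 ± 0.33. Retnlg, a resistin-like secreted protein of neutrophils, ran the other way, with means of 16.88 in B-cell deficient and 15.83 in C57BL/6 lungs (difference 1.04, adjusted p = 0.00653), a call that was lost within the first block (adjusted p = 0.0973), as was that of S100a9 (adjusted p = 0.0524). S100a8, S100a9 and Retnlg were named after their values were seen. Ifitm6, named for its size, had 5.63 to 6.75 in B-cell deficient and 7.60 to 9.60 in C57BL/6 lungs (difference -2.29 ± 0.21).

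Eosinophil genes moved in the opposite direction. Of 11 measured, 7 were higher in B-cell deficient lungs and 1 was lower, beside 14.1% and 14.3% of all named genes. The median difference was 0.94. Within the first block 5 were higher and 1 lower, beside 7.57% and 6.95% of all named genes. Rnase2a, an eosinophil-associated ribonuclease, had 13.48, 14.34 and 16.05 in B-cell deficient lungs, against 9.38, 11.61 and 13.52 in C57BL/6 lungs. All but 1 of the C57BL/6 arrays were below the lowest B-cell deficient one, and the difference was 3.17 ± 0.47 (adjusted p = 1.62e-05). Ccr3, the eotaxin receptor, had 11.91, 12.88 and 13.36 in B-cell deficient lungs and 9.09, 10.77 and 12.36 in C57BL/6 lungs (difference 1.85 ± 0.30). Its ligand Ccl11, or eotaxin, had 14.15, 15.41 and 16.73 in B-cell deficient lungs and 11.14, 13.04 and 14.84 in C57BL/6 lungs (difference 2.39 ± 0.43), with 10 of 13 C57BL/6 arrays below every B-cell deficient one. Alox15, a lipid-oxidizing enzyme of eosinophils and macrophages, differed by 1.70 ± 0.32, the granule genes Prg2 and Epx by 0.94 and 0.61 ± 0.12, and Siglecf by 0.74, with the calls of Prg2 (adjusted p = 0.222) and Siglecf (adjusted p = 0.226) lost within the first block. The 1 lower gene was Cd244a, a receptor that NK cells also carry, with a difference of -0.88 ± 0.17. Not called were Ccl24 (1.10), Il5ra (0.41) and Ear6 (0.07), named, like Prg2 and Siglecf, after their values were seen.

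Among 16 type 2 cytokines and their sources, 5 were higher and 1 was lower, beside 14.1% and 14.3% of all named genes. Il4, the cytokine that drives class switching to IgE, had 6.88, 7.17 and 7.61 in B-cell deficient lungs and 5.09, 6.01 and 7.29 in C57BL/6 lungs, with 11 of 13 C57BL/6 arrays below all B-cell deficient ones (difference 1.11 ± 0.23, adjusted p = 0.000702). The epithelial alarmins Il25 and Tslp differed by 0.86 ± 0.14 and 0.70 ± 0.16, Ptgdr2, the prostaglandin D2 receptor of type 2 cells, by 0.54 ± 0.11 and Il2ra by 0.73. The lower gene was Ccr4 (-0.48), whose call was lost within the first block (adjusted p = 0.114). Il2ra and Ccr4 were named after their values were seen. Il13 and Il5, which drive mucus production and eosinophil growth, had differences of 0.06 (95% interval -0.27 to 0.38) and 0.30 (95% interval -0.002 to 0.60, adjusted p = 0.128) and were not called. They too were named after their values were seen. Signals of Il13 were 4.97, 5.24 and 5.74 in B-cell deficient lungs, against 4.35, 5.16 and 5.94 in C57BL/6 lungs, with the medians close together.

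**Figure D2:**
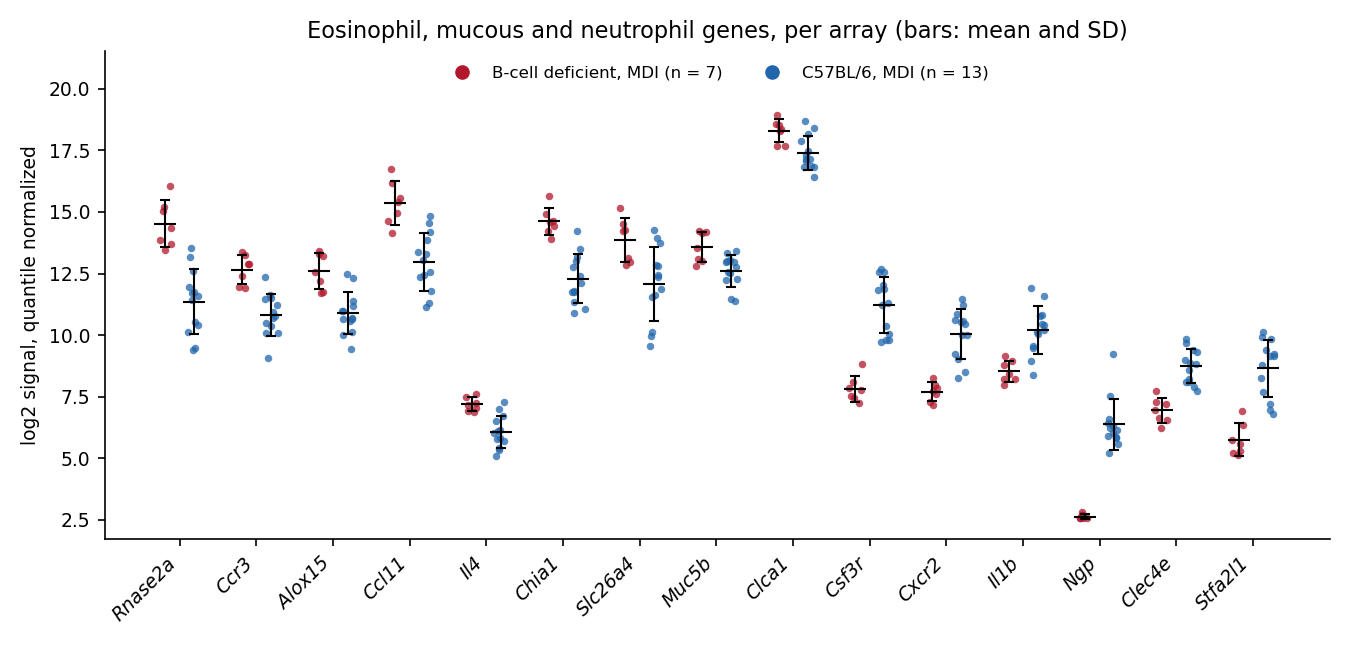
Log2 signal per array (quantile normalized) of 15 eosinophil, mucous and neutrophil genes in B-cell deficient MDI lungs (red, n = 7) and C57BL/6 MDI lungs (blue, n = 13), with bars for mean and SD. The genes from Rnase2a to Clca1 are higher in B-cell deficient lungs with overlapping arrays, and those from Csf3r to Stfa2l1 are lower.

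Mucous genes differed less, and how many were called depends on the scaling. Of 22 measured, 8 were higher, beside 14.1% of all named genes, and the other 14 were not called, with a median of 0.28. With arrays centred on their medians 2 were higher and 1 lower, beside 12.2% and 28.6% of all named genes. Slc26a4, an anion exchanger of the airway known as pendrin, had 12.84, 14.21 and 15.15 in B-cell deficient lungs and 9.58, 12.36 and 14.26 in C57BL/6 lungs (difference 1.78 ± 0.52, adjusted p = 0.0116). Muc5b, a gel-forming mucin, had 12.81, 13.52 and 14.21 in B-cell deficient lungs and 11.40, 12.78 and 13.41 in C57BL/6 lungs (difference 0.96 ± 0.25), while the other gel-forming mucin, Muc5ac, had 10.19, 12.45 and 13.02 in B-cell deficient and 9.32, 11.67 and 12.62 in C57BL/6 lungs and was not called (difference 0.66 ± 0.41, adjusted p = 0.245). Clca1, a secreted protein of goblet cells, was among the brightest genes in both groups, with 17.70, 18.37 and 18.93 in B-cell deficient and 16.44, 17.14 and 18.71 in C57BL/6 lungs, and its difference of 0.89 ± 0.25 became -0.16 with median centring. Agr2, which helps mucins to fold, differed by 0.71 ± 0.22. Ano1, a calcium-gated chloride channel, differed by 0.40 ± 0.12, or -0.09 with median centring. Within the first block the calls of Slc26a4 (1.29, adjusted p = 0.143), Agr2 (adjusted p = 0.0567), Ano1 (adjusted p = 0.125) and Pigr (adjusted p = 0.0745) were lost. Cftr, the chloride channel that cyclic AMP opens, was lower, with 9.46, 9.87 and 10.43 in B-cell deficient and 10.00, 10.59 and 11.22 in C57BL/6 lungs (difference -0.76 ± 0.16, adjusted p = 0.00108).

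Genes of alternatively activated macrophages also changed in count with the scaling. On the quantile scale 6 of 21 were higher, beside 14.1% of all named genes. With median centring 3 were higher and 5 lower, beside 12.2% and 28.6% of all named genes. Cd209a, a lectin of dendritic cells and macrophages, was the clearest, with 11.34, 11.62 and 11.86 in B-cell deficient and 8.86, 10.10 and 10.44 in C57BL/6 lungs and no overlap (difference 1.64 ± 0.18, adjusted p = 1.55e-07). Chia1, the acidic chitinase, had 13.90, 14.58 and 15.65 in B-cell deficient and 10.91, 12.14 and 14.21 in C57BL/6 lungs (difference 2.32 ± 0.34), and 12 of 13 C57BL/6 arrays were below all B-cell deficient ones. Both stayed higher under each scaling. Retnla, a secreted protein of macrophages and epithelium, differed by 0.51 ± 0.16, by 0.002 on the deposited scale and by -0.65 with median centring, and was not called within the first block (adjusted p = 0.191). The chitinase-like genes Chil3 and Chil4 were not called (0.02 ± 0.12 and 0.24 ± 0.20), and neither were the arginase gene Arg1 (0.65 ± 0.52) and the T-cell chemokine Ccl17, which had 12.47, 13.72 and 15.85 in B-cell deficient and 10.62, 12.40 and 15.03 in C57BL/6 lungs (difference 1.26 ± 0.50, adjusted p = 0.0597).

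Lymphocyte lists had called genes in both directions. Of 16 T-cell genes 3 were higher and 2 lower, near the 14.1% and 14.3% of all named genes, so the count is no result about the list. The CD8 chains Cd8b1 and Cd8a differed by 1.01 ± 0.16 and 0.69 ± 0.19, and Cd5, a brake on receptor signalling in T cells and some B cells, by -0.36 ± 0.12, or 0.30 on the deposited scale. The calls of Cd8a (adjusted p = 0.0811) and Cd5 (adjusted p = 0.0976) were lost within the first block. The thymus list, which holds both CD8 genes, was higher in 4 and lower in 1 of 8, and its mean per array was 6.63 to 6.96 in B-cell deficient and 6.23 to 6.62 in C57BL/6 lungs, with no overlap. Its other higher genes were Ptcra (0.70) and Dntt (0.36), which immature lymphocytes express and which were named after their values were seen, and the part of this list in the CD8 values was not tested. Cd8b1 had 8.47, 8.94 and 9.43 in B-cell deficient lungs and 7.50, 7.93 and 8.54 in C57BL/6 lungs. The CD3 chains of the T-cell receptor complex, Cd3e and Cd3d, were not called (0.67 ± 0.28, adjusted p = 0.0784, and 0.30 ± 0.18). Both were named after their values were seen. Of 14 genes of NK and cytotoxic cells 4 were higher and 5 lower, larger shares than the 14.1% and 14.3% of all named genes. Gzmb, the protease granzyme B, differed by -0.78 ± 0.12 without overlap, whereas Klrg1, a receptor of differentiated lymphocytes, differed by 1.02 ± 0.12, also without overlap, and the transcription factor Eomes by 0.74 ± 0.14. Lag3, an inhibitory receptor of activated lymphocytes, had 6.78 to 7.81 in B-cell deficient and 5.13 to 6.43 in C57BL/6 lungs (difference 1.40 ± 0.18). Of 17 dendritic cell genes 6 were higher and the rest were not called, among them Flt3, a growth factor receptor, at 0.92 ± 0.18 and Xcr1, the marker of cross-presenting cells, at 0.90 ± 0.22.

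Of 31 interferon-stimulated genes 5 were higher and 6 lower in MDI lungs, shares near the 14.1% and 14.3% of all named genes. Ifit3 had 11.80, 12.09 and 13.08 in B-cell deficient lungs and 10.69, 11.24 and 11.67 in C57BL/6 lungs, with no overlap (difference 1.12 ± 0.17), and Zbp1, a sensor of nucleic acids, had 6.37 to 7.21 in B-cell deficient and 5.08 to 5.99 in C57BL/6 lungs (difference 1.10 ± 0.13). Oas3, which starts RNA decay, differed by -0.61 ± 0.11 at signals of 3.08 to 3.80 in B-cell deficient and 3.67 to 4.45 in C57BL/6 lungs, near the low end of the scale.

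Muscle genes were mostly higher. Of 18 genes of skeletal and heart muscle 13 were higher, beside 14.1% of all named genes, and the other 5 were not called. The median difference was 1.03, and within the first block 12 muscle genes were higher, beside 7.57% of all named genes. The 6 muscle genes with the smallest p-values belong to heart muscle, which in mice also sheathes the pulmonary veins. Nppa, the atrial natriuretic peptide, had 10.39, 12.94 and 16.34 in B-cell deficient lungs and 7.14, 9.05 and 12.64 in C57BL/6 lungs, with wide spread in both groups (difference 3.89 ± 0.73, adjusted p = 0.000264). Ryr2, the calcium release channel of heart muscle, had 7.44, 7.83 and 9.30 in B-cell deficient and 6.06, 6.51 and 6.98 in C57BL/6 lungs, with no overlap (difference 1.65 ± 0.20). Myh6, Tnnt2, Myl4 and Actc1, parts of the contractile apparatus, differed by 1.81 ± 0.36, 1.52 ± 0.30, 1.44 ± 0.29 and 1.09 ± 0.18. The mean of the list per array was 8.47 to 10.78 in B-cell deficient and 7.26 to 9.42 in C57BL/6 lungs. Of 16 genes of extracellular matrix 7 were higher on the quantile scale, beside 14.1% of all named genes. With median centring 4 were higher and 3 lower, beside 12.2% and 28.6% of all named genes. Acta2, smooth muscle actin, had 16.29, 16.59 and 17.43 in B-cell deficient and 15.24, 15.70 and 16.23 in C57BL/6 lungs (difference 1.07 ± 0.14), or 0.30 with median centring, where its call was lost. Thbs1, Col14a1 and Col1a2 differed by 1.33 ± 0.28, 0.90 ± 0.14 and 0.67 ± 0.19, and the call of Col1a2 was lost within the first block (0.40, adjusted p = 0.275).

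Circadian clock genes differed in both directions. Of 17 measured, 10 were higher and 3 lower, beside 14.1% and 14.3% of all named genes. Within the first block 6 were higher and 1 lower, beside 7.57% and 6.95%. The counts of lower genes are near these shares, so they are no result about the list. Arntl, which encodes the activator BMAL1, had 7.76, 8.40 and 8.74 in B-cell deficient lungs, against 9.19, 9.63 and 10.10 in C57BL/6 lungs, with no overlap (difference -1.28 ± 0.14, adjusted p = 1.77e-07). Dbp, a transcription factor that BMAL1 activates, had 15.70, 15.99 and 16.26 in B-cell deficient and 13.81, 14.92 and 15.24 in C57BL/6 lungs, also without overlap (difference 1.23 ± 0.17). The repressors Per2, Cry2 and Ciart differed by 1.18 ± 0.20, 0.67 ± 0.15 and 1.09 ± 0.22, and Hlf, a relative of Dbp, by 1.08 ± 0.17. The other 2 lower genes were Npas2 (-0.68), a partner of BMAL1, and Cry1 (-0.40), both named after their values were seen and neither called within the first block (adjusted p = 0.0815 and 0.133). The labels give a light and dark cycle but no hour of harvest. Of 12 glucocorticoid-responsive genes 3 were higher and 1 was lower, beside 14.1% and 14.3% of all named genes. Sgk1, a kinase induced by steroid hormones, had 10.86 to 11.68 in B-cell deficient and 11.97 to 12.49 in C57BL/6 lungs (difference -0.96 ± 0.10), whereas Zbtb16 and Klf9 differed by 1.63 ± 0.40 and 0.71 ± 0.21.

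Other lists gave the following counts in B-cell deficient against C57BL/6 MDI lungs. The lung markers Sftpc, Sftpb and Scgb1a1 were among the brightest probe sets in both genotypes, with Sftpc, surfactant protein C, at 19.42 to 19.47 in B-cell deficient and 19.32 to 19.59 in C57BL/6 lungs. Alveolar type 2 genes were lower in 1 of 14 on the quantile scale and in 13 of 14 with median centring. Alveolar type 1 genes were higher in 3 of 12, ciliated genes higher in 4 and lower in 1 of 14, endothelial genes higher in 2 and lower in 2 of 20, and, with median centring, alveolar type 1 genes higher in 1 and lower in 6, ciliated genes higher in 2 and lower in 1, and endothelial genes higher in 2 and lower in 11. On the quantile scale, proliferation genes were higher in 1 and lower in 2 of 21. Mast cell and basophil genes were lower in 2 of 13. One of these was Fcer1a, the alpha chain of the high-affinity IgE receptor, which differed by -0.74 and was named after its value was seen. Chemokine genes were higher in 2 and lower in 4 of 28, alveolar macrophage genes higher in 1 and lower in 1 of 14, and genes of interstitial macrophages and monocytes higher in 2 and lower in 3 of 16. Among all named genes 14.1% were higher and 14.3% lower on the quantile scale, and 12.2% and 28.6% with median centring. Beside these shares, the counts are given without further reading.

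**Figure D3:**
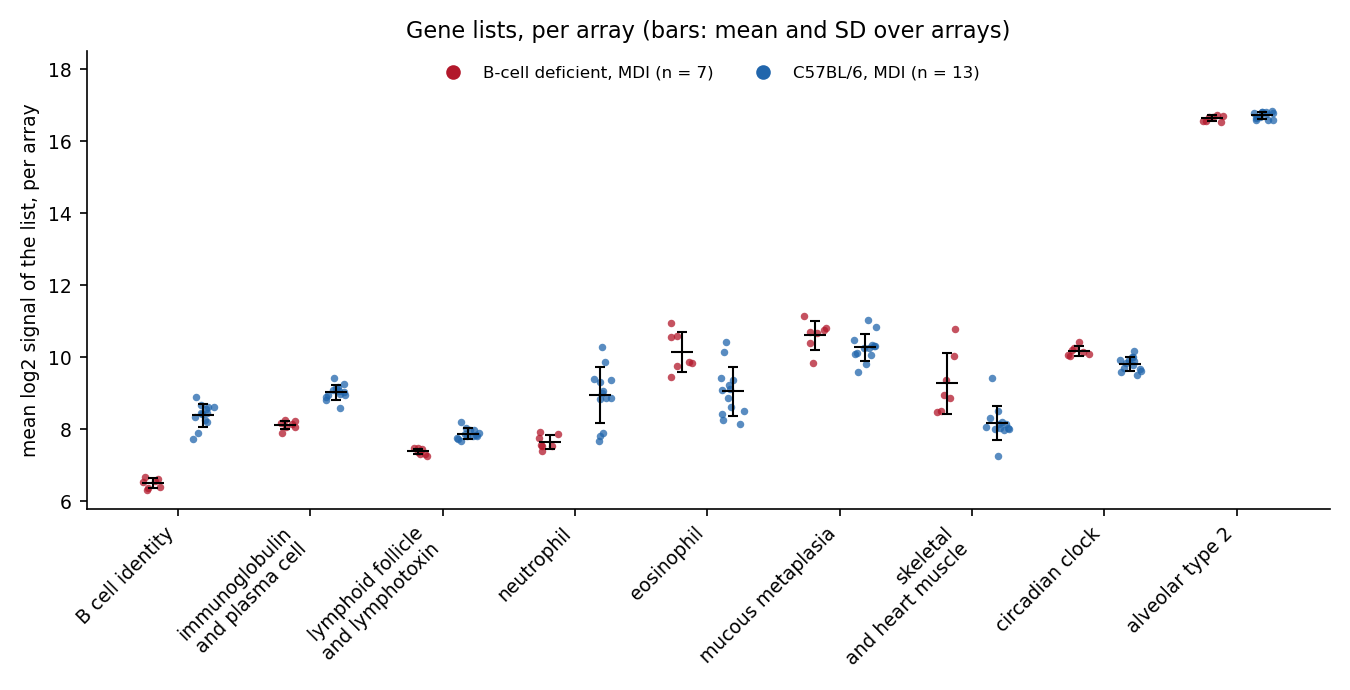
Mean log2 signal (quantile normalized) of 9 gene lists per array in B-cell deficient MDI lungs (red, n = 7) and C57BL/6 MDI lungs (blue, n = 13), with bars for mean and SD over arrays. The B-cell, plasma-cell and follicle lists separate all arrays, the neutrophil list separates 10 of 13 C57BL/6 arrays, and the alveolar type 2 list overlaps. In the plasma-cell list the median gene difference was 0.16, and Jchain, at -7.59, weighs most on the mean.

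Over all named genes, 146 were called higher by 1 log2 unit or more (0.749%) and 134 lower (0.687%). By a rule that also required arrays without overlap, a call in the first block and a signal above the median, the largest higher genes, apart from the lists and from the repeated loci below, began with Lrmda, a gene of melanocyte differentiation, which had 9.02, 9.19 and 9.85 in B-cell deficient lungs and 5.91, 6.71 and 7.12 in C57BL/6 lungs (difference 2.73 ± 0.16). Map3k7cl had 9.39, 9.79 and 10.47 in B-cell deficient and 6.91, 7.81 and 8.90 in C57BL/6 lungs (difference 2.02 ± 0.25). Snai3, a zinc finger factor of the snail family, differed by 1.67 ± 0.15, Khdrbs3, an RNA-binding protein, by 1.53 ± 0.16, P2rx1, an ATP-gated channel, by 1.46 ± 0.19, Egfl8 by 1.43 ± 0.15, Mnt, a repressor that pairs with Max, by 1.41 ± 0.16 and Krtap6-5, a keratin-associated protein, by 1.41 ± 0.15. Tacr1, the receptor of substance P, was the large lower gene outside the immune lists, with 4.73, 5.73 and 6.11 in B-cell deficient and 6.56, 7.39 and 8.22 in C57BL/6 lungs (difference -1.91 ± 0.21, adjusted p = 2.04e-07).

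Several of the largest higher genes belong to loci with near-identical copies, where a probe set may read more than 1 copy and the value of a single copy is uncertain. Plac9a and Plac9b, whose promoters share a run of 172 bases, had 12.69, 12.96 and 13.62 and 12.69, 13.12 and 13.52 in B-cell deficient lungs, against 9.36, 10.00 and 10.99 and 9.65, 9.99 and 10.89 in C57BL/6 lungs. Their differences were 2.96 ± 0.17 and 3.03 ± 0.14, and the genes between them on chromosome 14, Cphx1, Cphx2 and Duxbl2, differed by 0.27, -0.11 and 0.71. On chromosome 4, Gm3893, a predicted gene, had 11.22, 11.81 and 12.52 in B-cell deficient lungs and 6.23, 6.69 and 7.33 in C57BL/6 lungs, a difference of 5.12 ± 0.16 that was the largest higher value in these lungs. Fam205a2 in the same cluster differed by 2.35 ± 0.19 and Fam205a1, Fam205a3 and Fam205a4 by 0.79, 0.79 and 0.99, whereas the chemokine copies Ccl21a and Ccl21b between them differed by -0.04 and -0.01 and were not called. On chromosome 12, Srp54a, Srp54b and Srp54c, copies of a signal recognition particle subunit, differed by 1.32 ± 0.09, 1.33 ± 0.10 and 1.12, and Fam177a2, which lies among them, by 1.32 ± 0.10. Entpd4, a nucleotidase on chromosome 14, differed by 1.24 ± 0.12. The 3 measured genes to either side of these 4 clusters and of Lrmda were taken as neighbours. Of these 30 neighbours 10 were called, beside 28.4% of all named genes, and differences ran from -0.97 to 0.71. The neighbour with the highest difference, Duxbl3, had the same values as Duxbl2. The genes of this paragraph outside Plac9a, Plac9b, Fam205a2 and Srp54b were chosen after their values were seen.

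**Figure D4:**
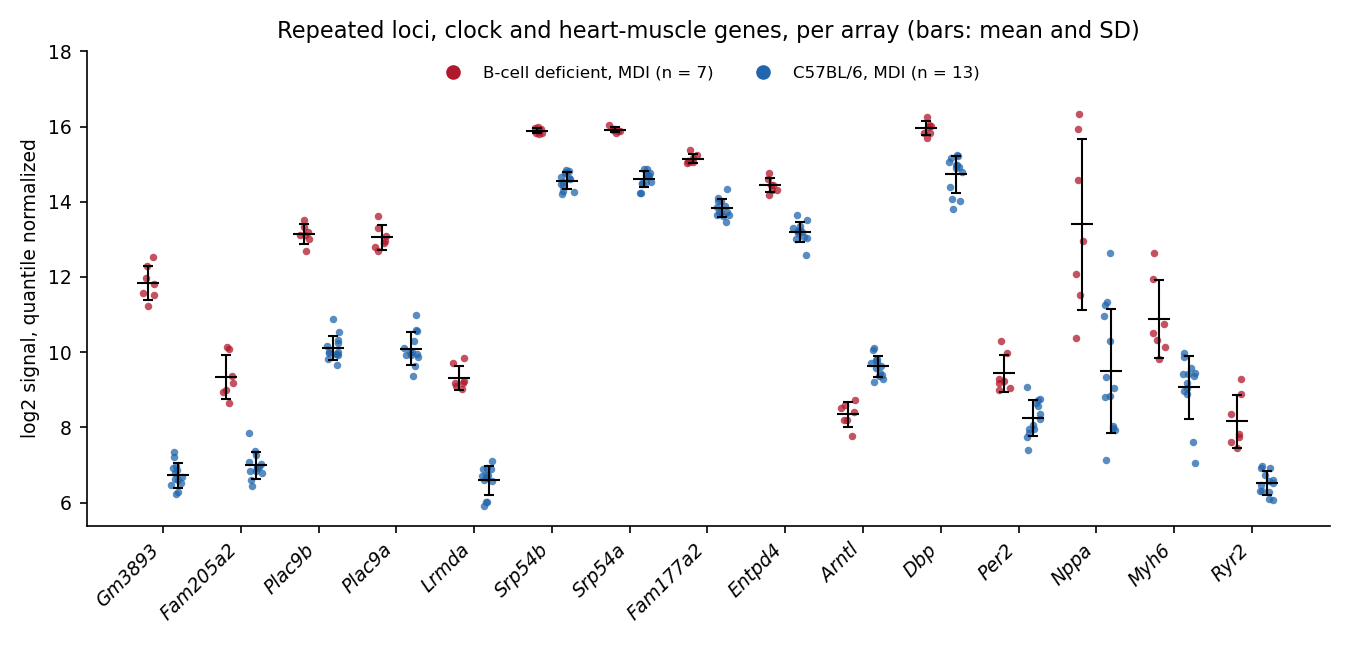
Log2 signal per array (quantile normalized) of genes at repeated loci, Lrmda, 3 clock genes and 3 heart-muscle genes in B-cell deficient MDI lungs (red, n = 7) and C57BL/6 MDI lungs (blue, n = 13), with bars for mean and SD. The repeated loci and Lrmda form tight groups without overlap, while Nppa spreads from 10.39 to 16.34 in B-cell deficient and from 7.14 to 12.64 in C57BL/6 lungs.

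The targeted gene, Ighm, lies on chromosome 12, and the allele was made in cells of another strain. On that chromosome 11 of 587 measured genes differed by 1 log2 unit or more (1.87%), within the range of the other autosomes (0.455% to 2.2%). These include Srp54a, Srp54b, Srp54c and Fam177a2, which lie together at 1 repeated locus. Among the 68 measured genes nearest to Ighm, 22 were called (32.4%, against 28.4% of all named genes), and none of them reached 1 log2 unit. On the side toward the chromosome end 8 of 18 were called (44.4%), and on the other side 14 of 50 (28%).

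The same genotypes were compared in control lungs, from arrays that do not enter the comparison above. There 25.9% of named genes were higher and 26% lower, and 2714 genes (13.9%) differed between the MDI and control comparisons in a direct test. All 9 B-cell deficient control arrays belong to the second block of records and none of the C57BL/6 controls does, so block and genotype cannot be told apart in control lungs. Of the 2787 genes that were lower in MDI lungs, 1915 were also lower in control lungs (68.7% of the MDI list and 37.8% of the 5067 lower in control lungs), and of the 2752 higher, 1926 were also higher (70% of the MDI list and 38.1% of the control list). Of the 134 lower by 1 log2 unit or more in MDI lungs, 125 were lower in control lungs (93.3%), and of the 146 higher 117 were higher (80.1%).

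B-cell genes had a median difference of -1.57 with MDI and -2.22 with control, where 24 of 27 were lower, and the difference of differences was called for 7 of 27, all toward a smaller deficit with MDI. Cd79a, at -6.19 with MDI and -6.32 with control, was not among them. Bank1 had a smaller deficit with MDI than with control (-2.94 against -4.95, difference of differences 2.13 ± 0.37, adjusted p = 0.000447), as did Cd22 and Fcer2a. Of the neutrophil genes, 19 of 20 were lower in control lungs, against 12 in MDI lungs, and for 6 the difference of differences was called, all with a smaller deficit under MDI or a higher signal. Csf3r was at -3.40 with MDI and -5.35 with control (difference of differences 2.02 ± 0.59), and Il1b at -1.68 and -3.80 (2.17 ± 0.55). The excess of Rnase2a was found with MDI (3.17) and was not called with control (0.42, adjusted p = 0.216), and the difference between them was 2.74 ± 0.64 (adjusted p = 0.0044). Il4 was higher with MDI and lower with control (1.11 and -0.60, difference of differences 1.67 ± 0.34). Ccl11, Chia1 and Il25 were higher in control lungs too, at 2.39, 2.32 and 0.86 with MDI and 2.09, 2.09 and 1.21 with control. The difference of differences was called for none of them. In control lungs 4 of 11 eosinophil genes were higher and 3 lower, and 6 and 5 of 16 type 2 genes. The shares of all named genes were 25.9% and 26%. A difference of differences was called for 3 of these 11 and 2 of these 16, all toward a higher value with MDI. Interferon-stimulated genes were lower in 21 of 31 cases in control lungs, and 17 of 31 had a called difference of differences, all toward a higher value with MDI, beside 7.17% of all named genes in that direction and 6.75% in the other. This direction was not particular to those lists. It was called for 7 of 16 T-cell, 6 of 14 NK and cytotoxic and 5 of 11 MHC class II genes. The same held for 7 of 16 genes of interstitial macrophages and monocytes, and no gene of these lists was called the other way. Tacr1 ran in the other direction, at -1.91 with MDI and -0.42 with control (difference of differences -1.43 ± 0.30). At the repeated loci, Gm3893 was at 5.12 with MDI and 4.55 with control, and Plac9b at 3.03 with MDI and 3.20 with control, while Fam177a2 was at 1.32 with MDI and 1.71 with control and Duxbl2 at 0.71 and 1.77, both with a called difference of differences (adjusted p = 0.0435 and 0.00608). Clock genes were higher in 9 and lower in 3 of 17 cases in control lungs, with Arntl at -1.28 with MDI and -1.57 with control, and of the 18 muscle genes 7 were higher in control lungs, with Nppa at 1.92 there (adjusted p = 0.0801).

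**Figure D5:**
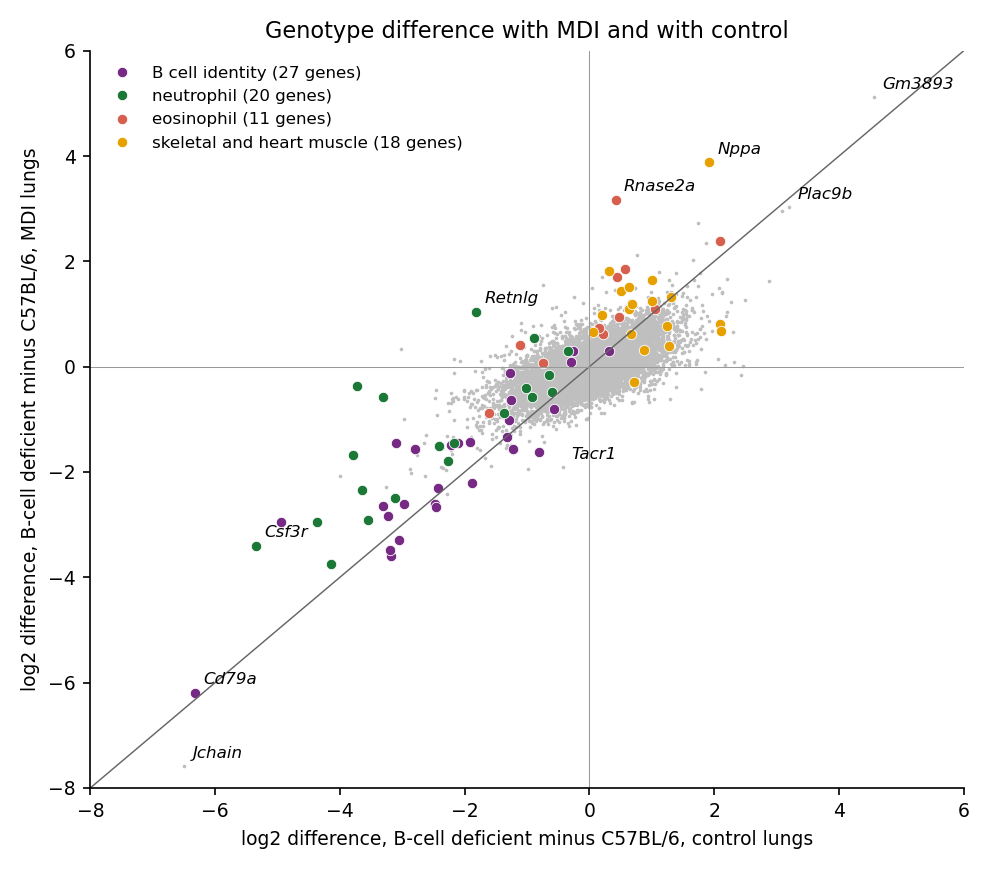
Difference between B-cell deficient and C57BL/6 lungs (log2, quantile normalized) with MDI on the vertical axis and with control solution on the horizontal axis, for 19505 named genes (grey) and 4 gene lists (colours). The line marks equal differences. Of the B-cell genes, 7 of 27 had a called difference between MDI and control, all above the line, as had 6 of 20 neutrophil genes and 3 of 11 eosinophil genes, while that of Nppa (1.93, adjusted p = 0.309) was not called.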

How the data were processed

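Lung RNA of MDI-exposed B-cell deficient (n = 7) and C57BL/6 mice (n = 13), with control-exposed mice (n = 9 and 6), was measured on 1-colour arrays. The authors deposited log2 values, made with the Transcriptome Analysis Console per the submitters' processing notes, which name no version. From the range of the values (1.86 to 20.91) the logarithm was taken to be base 2. The labels name no genome build. The 20 MDI arrays were quantile normalized together, as were the 15 control arrays, and all 35 for the difference between MDI and control. Each was fitted with limma 3.58.1 (R 4.3.3; lmFit, eBayes with an intensity trend), with Benjamini-Hochberg adjustment over 22206 probe sets. No covariate was used. A gene was represented by its brightest probe set, and 2634 probe sets had no symbol in the platform annotation. Python 3.11.15 was used for sequences and figures.

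The members, gene lists and tests were chosen with earlier results of these data known, and the lists described were picked after list results were seen. Named genes were the 15 largest differences each way that also had no overlap between arrays, a call in the first block and a higher mean above the median of all probe sets, from each described list at most 6 genes in order of adjusted p, and 9 genes chosen in advance. Others are marked in the text. The fit was tested on simulated data. Alternatives were the deposited values, median centring, dim probe sets left out, array weights, no intensity trend, blocks of records, a replicate block and each array left out. The block of records as a term and the list counts under other settings were chosen after seeing the data. The 2 arrays whose labels contradict each other were left out.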

Additional observations from a re-analysis of the deposited data

Results flagged for a closer look

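The counts in this section and the next cover 111 genes. They leave out some genes named after their values were seen, such as S100a9, Retnlg and Duxbl2. Of the 111 genes, 3 had 1 B-cell deficient MDI array far from the other 6, and chance gives about 1 such array in 20 groups. Cr2 was lowest in replicate 4, at a log2 signal of 3.996, with the next array at 4.396. Mzb1 was highest in replicate 1, at 4.272, with the next at 3.942, and Scgb1a1 was highest in replicate 3, at 19.729, with the next at 19.686.

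For 25 of the 111 genes the difference between the genotypes itself differed between MDI and control lungs in the limma fit of all 35 arrays (log2 units, ± SE, n = 7, 13, 9 and 6 arrays), beside 13.9% of all named genes. The difference between B-cell deficient and C57BL/6 lungs was more positive with MDI than with control for Rnase2a by 2.735 ± 0.638 (adjusted p = 0.0044), Il1b by 2.165 ± 0.548 (adjusted p = 0.00811), Bank1 by 2.132 ± 0.373 (adjusted p = 0.000447) and Csf3r by 2.017 ± 0.589 (adjusted p = 0.0193). It was also more positive for Il4 by 1.671 ± 0.338 (adjusted p = 0.00147), Eomes by 1.28 ± 0.207 (adjusted p = 0.000205), Ifit3b by 1.279 ± 0.253 (adjusted p = 0.00127) and H2-DMa by 1.123 ± 0.333 (adjusted p = 0.021). The same direction was found for Ifit3 by 1.049 ± 0.255 (adjusted p = 0.00608), P2rx1 by 1.018 ± 0.259 (adjusted p = 0.00841), Flt3 by 0.953 ± 0.292 (adjusted p = 0.025) and Cd8b1 by 0.92 ± 0.236 (adjusted p = 0.00888). Smaller positive values were found for Lrmda by 0.881 ± 0.244 (adjusted p = 0.0143), Gzmb by 0.828 ± 0.187 (adjusted p = 0.00362), Cd22 by 0.817 ± 0.246 (adjusted p = 0.023) and Cd244a by 0.797 ± 0.279 (adjusted p = 0.049). Next came Fcer2a by 0.769 ± 0.224 (adjusted p = 0.0191), Tslp by 0.669 ± 0.224 (adjusted p = 0.0402), Ltb by 0.653 ± 0.217 (adjusted p = 0.0383) and Zbp1 by 0.595 ± 0.198 (adjusted p = 0.0386). The smallest positive value was that of Oas3, at 0.527 ± 0.173 (adjusted p = 0.0356). It was more negative with MDI for Tacr1 by -1.431 ± 0.296 (adjusted p = 0.00177), Krtap6-5 by -0.806 ± 0.244 (adjusted p = 0.0237), Snai3 by -0.649 ± 0.213 (adjusted p = 0.0353) and Fam177a2 by -0.437 ± 0.149 (adjusted p = 0.0435). The control arrays of the genotypes come from different blocks of records, and what the blocks add to these values cannot be told apart from genotype.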

How the results depend on the processing

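The 6351 probe sets called in MDI lungs (3135 higher and 3216 lower in B-cell deficient) became 16882 (16540 and 342) with the deposited values and 9094 (2743 and 6351) with median centring. They became 2209 (1047 and 1162) without dim probe sets, where fewer were tested, and 3255 (1682 and 1573) within the first block of records, where fewer arrays were used. With the block of records as a term they were 3598 (1831 and 1767), and leaving out 1 array gave 5552 to 7113 (2739 to 3498 higher and 2786 to 3615 lower). Same-numbered arrays did not deviate together (correlations of -0.257 to 0.107), and a replicate block over 14 arrays gave 3255 (1624 and 1631), against 4027 (1994 and 2033) for those arrays with no replicate block. In control lungs the 11612 calls (5864 higher and 5748 lower) became 14563 higher and 1595 lower with the deposited values, and 5839 (3005 and 2834) without dim probe sets. The 3155 calls of the difference between MDI and control (1552 and 1603) became 2414 lower with the deposited values, 5097 in all and 3624 lower with median centring, and 1689 (863 and 826) without dim probe sets. Direction turned for Cd5 (0.30), Chil3 (-0.478), H2-Eb2 (0.019), Scgb1a1 (-0.271), Sftpb (-0.352) and Tnfrsf17 (0.326) with the deposited values. It turned for Ano1 (-0.09), Chil3 (-1.129), Chil4 (-0.575), Clca1 (-0.16), Retnla (-0.648), Scgb1a1 (-0.922) and Sftpb (-1.003) with median centring. The cause was not tested. Of 98 called genes among the 111 checked, 95 kept call and direction with each 1 array left out. Under all settings but the deposited values and median centring 87 did, and under all settings 79 did. Many of these genes were picked by their adjusted p, and the largest differences also by a call in the first block. These counts are therefore partly fixed by that choice and do not measure how stable other genes are. Genes of the text outside these 111 are not in these counts. Agr2 lost its call without B-cell deficient replicate 6, Cd5 without B-cell deficient replicates 1, 4 or 6, and H2-DMa in 13 such fits. Of the dimmer probe sets 35% were called, against 22.2% of the brighter ones. Signals below 3.735 lie in the lowest 5% of the scale, where differences such as that of Jchain are limited by the low end.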
